A study of Mus musculus with 2 samples.

Results

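Toll-like receptors are the membrane sensors by which innate immune cells recognise bacterial and viral molecules, and the data described here are the transcripts of 6 of them with their main adaptor and the 2 coreceptors of lipopolysaccharide. The 9 genes were Tlr1, Tlr2, Tlr4, Tlr7, Tlr9, Tlr13, Myd88, Cd14 and Ly96, taken by symbol from the 32285 genes of both matrices. They were read in immune cells from the inflamed colon of C57BL/6 mice by single-cell sequencing, in 1 library labelled CKO and 1 library labelled WT, under a title that names the loss of RPA1. The 10x 3′ kit counts captured transcripts by unique molecular identifiers (UMIs). The sources used here do not give the deleted allele, the promoter of any Cre driver, the age or number of the mice or the agent behind the experimental colitis, so label, animal, cell preparation and library cannot be told apart.

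After filtering, 10942 cells with the CKO label and 2924 with the WT label were retained, from 57740083 and 18627050 deposited UMIs, and 6 cell barcodes occurred in both libraries. Clusters were formed without the 9 genes and named from marker lists. The library labelled CKO held 1804 neutrophil-like, 808 monocyte and macrophage-like, 330 dendritic cell-like (DC-like), 5073 B-like, 488 plasma-like, 503 T-like, 307 NK-like, 271 ILC2-like and 107 ILC3-like cells. The library labelled WT held 181 neutrophil-like, 31 monocyte and macrophage-like, 26 DC-like, 1162 B-like, 211 plasma-like, 332 T-like, 29 NK-like, 103 ILC2-like and 35 ILC3-like cells. All 13 neutrophil markers stood above their level in other classes in neutrophil-like cells of both libraries, and of 19 monocyte and macrophage markers 19 did so in that class with the CKO label and 18 with the WT label. Of 14 DC markers 13 did so in DC-like cells with the CKO label and 12 with the WT label. The clusters were named from these same lists, so these counts are no separate check of the names. Mixed clusters, whose threshold was set after the data were seen, held 4.63% of cells with the CKO label and 6.43% with the WT label, unnamed clusters 3.93% with the CKO label and 18.6% with the WT label, and unnamed cycling clusters 1.53% with the CKO label and 2.15% with the WT label. Rpa1, the gene of that protein, stood no lower among T-like cells with the CKO label, at 51.5 CPM (107 UMIs) against 39.0 CPM (67 UMIs) with the WT label, a log2 ratio of 0.40 (-0.05 to 0.86); T cells are the class that the title names. Of the 9 classes, 1 had an interval apart from no difference, NK-like cells, with 64 UMIs with the CKO label and 0 with the WT label. Whether its 3′ reads lie outside the deleted part is not known, so the labels were not checked by it and every direction given here is one between labels.

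Levels are summed UMIs of a gene per 1000000 UMIs of the class (CPM). With 1 library per label no test between labels was possible. Intervals in brackets are exact 95% intervals for counting error alone, which take each UMI or cell as an independent draw. Ratios are log2 of the CKO label over the WT label. They were read for genes with at least 20 UMIs over both libraries and counted as higher or lower from 1.5-fold. In an alternative called shared cluster weights, each cluster of a class had the same weight in both libraries, set by its UMIs over both. Larger clusters thus weighed more, and clusters with under 5 cells in a library were left out.

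At the cell surface, TLR4 recognises bacterial lipopolysaccharide together with the secreted protein MD-2, encoded by Ly96, after CD14 has handed the molecule over, while TLR2 pairs with TLR1 or TLR6 to recognise lipoproteins. TLR7, TLR9 and TLR13 lie in endosomes and recognise single-stranded RNA, unmethylated CpG DNA and bacterial ribosomal RNA. MyD88 is the cytosolic adaptor of all of these receptors and leads through IRAK kinases and TRAF6 to NF-κB and the genes of inflammatory cytokines, and in the gut these receptors meet the products of the microbiota.

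Promoters are shown for Tlr1, Tlr13 and Myd88, which were higher in neutrophil-like cells with the CKO label, and for Tlr2, at a log2 ratio of 0.14 there. The RefSeq promoter table (GRCm38.p6) held 6 windows for 5 of the 9 genes. The bases before the RefSeq start that lie outside exons of GENCODE vM21 are printed 5′ to 3′ on the gene's strand. The Myd88 window lies inside the span given below for this gene, 119335934 to 119341411. It thus precedes a RefSeq start within that span and does not lie upstream of the whole gene. Capitals mark matches on either strand to GAGGAA, a core of sites of the myeloid factor PU.1, to GGG followed by any 5 bases and CC, a simple NF-κB motif, or to GAAA, any 2 bases and GAAA, as in sites of interferon response factors.
Tlr1, chr5:64933564-64933808, minus strand: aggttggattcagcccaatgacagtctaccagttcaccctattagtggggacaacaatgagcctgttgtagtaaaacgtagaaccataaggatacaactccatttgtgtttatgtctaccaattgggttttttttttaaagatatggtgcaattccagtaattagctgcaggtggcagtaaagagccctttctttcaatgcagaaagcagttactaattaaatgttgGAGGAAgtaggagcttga
Tlr2, chr3:83841768-83841858, minus strand: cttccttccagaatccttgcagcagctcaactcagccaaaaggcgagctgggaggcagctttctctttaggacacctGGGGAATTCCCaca
Tlr13, chrX:106143025-106143203, plus strand: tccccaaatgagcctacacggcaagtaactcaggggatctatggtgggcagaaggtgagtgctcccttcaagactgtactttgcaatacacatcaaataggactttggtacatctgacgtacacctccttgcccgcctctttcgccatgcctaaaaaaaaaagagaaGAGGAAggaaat
Myd88, chr9:119340042-119340268, minus strand: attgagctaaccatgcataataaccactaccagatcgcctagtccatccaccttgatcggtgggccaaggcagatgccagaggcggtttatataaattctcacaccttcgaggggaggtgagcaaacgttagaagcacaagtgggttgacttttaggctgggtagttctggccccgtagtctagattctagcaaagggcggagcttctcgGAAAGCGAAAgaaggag
GAGGAA was found in the windows of Tlr1 and Tlr13 and also in that of Tlr9. Of 32851 promoter windows cut to the place and length of the Tlr1 window, 22.7% hold it, and of those cut like the Tlr13 window 17.1%. The Tlr2 window held 3 overlapping matches to the NF-κB motif over both strands, present in 16.3% of windows cut alike. The Myd88 window held the interferon response motif, present in 2.70% of windows cut alike. A match is a string of letters and was not tested as a binding site.

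Across the classes, most of the 9 genes were highest in myeloid cells of both libraries. Cd14, on chromosome 18 of GRCm38 at 36725067 to 36726798 (minus strand, 2 exons), encodes the coreceptor that passes lipopolysaccharide to TLR4 and MD-2. It was highest in neutrophil-like cells, at 6972 CPM with the CKO label and 4086 CPM with the WT label, followed by monocyte and macrophage-like cells, at 3496 CPM with the CKO label and 2197 CPM with the WT label. DC-like cells held Cd14 at 763 CPM with the CKO label and 291 CPM with the WT label. The intervals of these neighbours did not overlap in either library.

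Tlr2, on chromosome 3 at 83836272 to 83841767 (minus strand, 3 exons), encodes the common subunit of the lipoprotein receptors. It was alike in neutrophil-like cells (315 CPM with the CKO label, 286 CPM with the WT label) and monocyte and macrophage-like cells (336 CPM with the CKO label, 262 CPM with the WT label). DC-like cells held 61.3 CPM with the CKO label and 53.9 CPM with the WT label, with intervals apart from both higher classes. Tlr13, on the X chromosome at 106143204 to 106160493 (plus strand, 3 exons), was at 107 CPM with the CKO label and 54.5 CPM with the WT label in neutrophil-like cells. It was at 58.0 CPM with the CKO label and 49.9 CPM with the WT label in monocyte and macrophage-like cells, and at 21.4 CPM with the CKO label and 28.7 CPM with the WT label in DC-like cells. Lymphoid classes held Tlr13 at 0.661 CPM or less, from at most 11 UMIs.

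Tlr4, on chromosome 4 at 66827584 to 66930284 (plus strand, 3 exons), is the subunit that signals for lipopolysaccharide. It stood out in neutrophil-like cells, at 62.2 CPM with the CKO label and 117 CPM with the WT label, apart in both libraries from monocyte and macrophage-like cells, the next class, at 16.1 CPM with the CKO label and 9.36 CPM with the WT label. Ly96, on chromosome 1 at 16688051 to 16709611 (plus strand, 5 exons), was highest in monocyte and macrophage-like cells, at 27.8 CPM with the CKO label and 40.6 CPM with the WT label. Neutrophil-like cells followed with 115 Ly96 UMIs with the CKO label and 7 with the WT label (18.2 CPM), and the intervals of both classes overlapped. Plasma-like cells held Ly96 at 8.53 CPM (66 UMIs) with the CKO label and 9.19 CPM (40 UMIs) with the WT label, with intervals that overlapped those of DC-like cells. They also held Tlr4 at 4.01 CPM (31 UMIs) with the CKO label and 3.22 CPM (14 UMIs) with the WT label, where T-like cells had 1 Tlr4 UMI with the CKO label and 0 with the WT label. The Tlr4 intervals of plasma-like cells overlapped those of DC-like and B-like cells in both libraries, and that of T-like cells with the WT label.

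Tlr7, on the X chromosome at 167304929 to 167330558 (minus strand, 3 exons), was highest, among the 9 classes, in monocyte and macrophage-like cells, at 51.8 CPM with the CKO label and 34.3 CPM with the WT label, and in B-like cells, at 47.9 CPM with the CKO label and 36.5 CPM with the WT label. The intervals of both classes overlapped. DC-like cells held 10.4 CPM with the CKO label and 18.0 CPM with the WT label. Neutrophil-like cells had 28 Tlr7 UMIs (5.34 CPM) with the CKO label and 0 with the WT label, where a floor of 3 counts over the class allows up to 7.79 CPM, so no fold is given.

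Tlr9, on chromosome 9 at 106222598 to 106226883 (plus strand, 2 exons), gave few UMIs in any class. B-like cells held 3.97 CPM (66 UMIs) with the CKO label and 3.61 CPM (19 UMIs) with the WT label. Neutrophil-like cells had no Tlr9 UMI in either library, which allows up to 0.573 CPM with the CKO label and 7.79 CPM with the WT label. Plasmacytoid DC-like cells, the type best known for TLR7 and TLR9, numbered 13 with the CKO label and 1 with the WT label. They held Tlr7 at 97.9 CPM (39.4 to 202, 7 UMIs) with the CKO label and 116 CPM (2.93 to 646, 1 UMI) with the WT label. They held no Tlr9 UMI, which allows up to 42.0 CPM with the CKO label and 348 CPM with the WT label.

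Myd88, on chromosome 9 at 119335934 to 119341411 (minus strand, 6 exons), was read in 7 of the 9 classes. It was at 203 CPM with the CKO label and 106 CPM with the WT label in neutrophil-like cells, at 141 CPM with the CKO label and 125 CPM with the WT label in monocyte and macrophage-like cells, and at 84.6 CPM with the CKO label and 53.9 CPM with the WT label in DC-like cells. B-like cells held 21.0 CPM with the CKO label and 16.7 CPM with the WT label, and plasma-like cells, the lowest, 4.14 CPM with either label. Myd88 was the 1 gene of the 9 that overlapped others in the files. Slc22a14, on the same strand, had 0 UMIs in both libraries. Acaa1a is on the opposite strand, at 34.9 CPM with the CKO label and 36.3 CPM with the WT label in neutrophil-like cells, and the sources used here do not say whether counting used the strand, so its reads and those of Myd88 may not be told apart.

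Tlr1, on chromosome 5 at 64924679 to 64933563 (minus strand, 3 exons), had 167 UMIs (31.9 CPM) in neutrophil-like cells with the CKO label and 5 with the WT label. It was at 16.1 CPM with the CKO label and 15.6 CPM with the WT label in monocyte and macrophage-like cells and at 11.7 CPM with the CKO label and 11.6 CPM with the WT label in B-like cells, classes whose intervals overlapped in both libraries. Tlr6 is a close paralog: its transcripts hold 21.9% of the 31-base words of transcript Tlr1-201 and 6.60% of those in its last 500 bases, so counting could split reads of the pair and values of Tlr1 are uncertain to that extent.

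**Figure D1:**
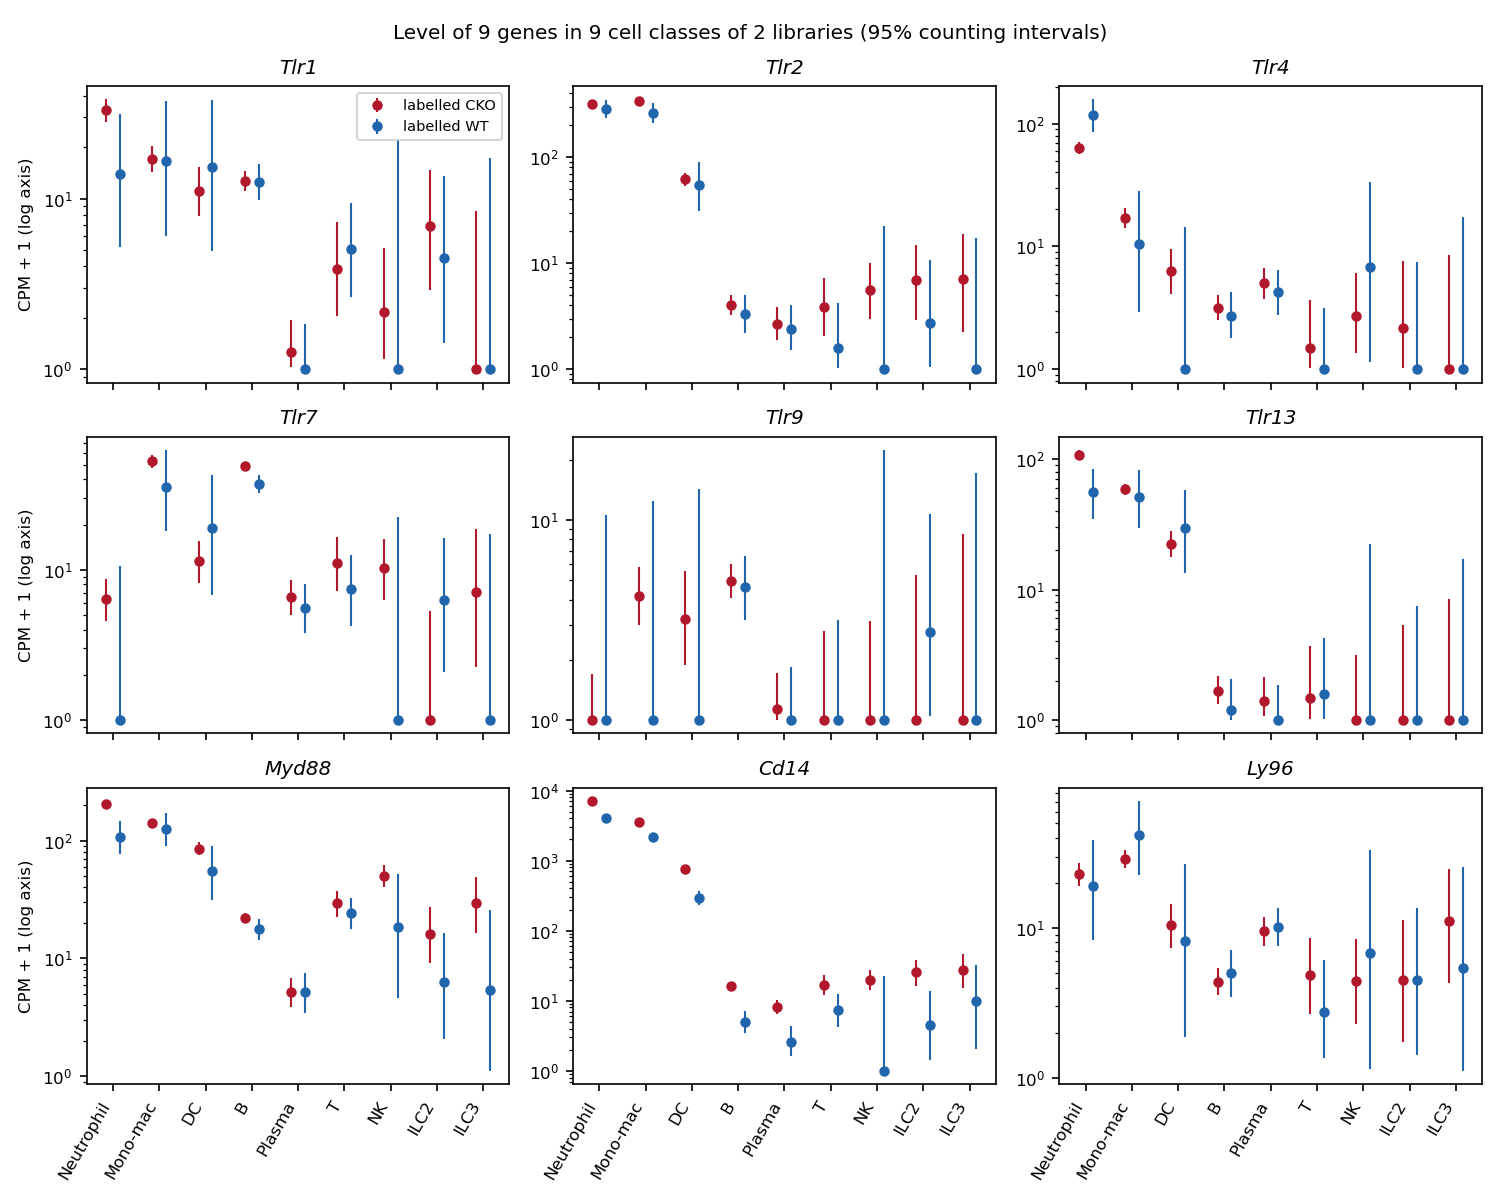
Level of each of the 9 genes, as CPM + 1 on a log axis, in 9 cell classes of the library labelled CKO (red, left) and the library labelled WT (blue, right); bars are exact 95% Poisson intervals, and a point at 1 is a class with 0 UMIs. Cd14, Tlr2 and Tlr13 are high in the 3 myeloid classes, Tlr4 stands out in neutrophil-like cells, and Tlr7 is high in monocyte and macrophage-like and in B-like cells.

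Class profiles of the members were compared by Pearson's r of log2(CPM + 10) over the 18 points given by 9 classes in 2 libraries, which share libraries and free RNA. It was 0.99 between Tlr2 and Cd14, 0.98 between Tlr2 and Tlr13, 0.71 between Tlr7 and Tlr9 and -0.11 between Tlr4 and Tlr7. Of 4785 candidate genes, the most like Cd14 were Clec4e (0.99), App and Gda, the most like Tlr2 were Hp (0.99), App and Klra2, and the most like Tlr13 were Mefv (0.99), Ccl6 and App. Schip1 (0.98), Rab44 and F3 were nearest to Tlr4, Snx10 (0.96), Sec24b and Atp6v1a to Myd88, Samhd1 (0.92), Nampt and Eif2ak2 to Tlr1, and Ly6i (0.92), Adssl1 and Ralgds to Ly96. Tlr7 was nearest to Fcgr2b (0.88), the inhibitory Fc receptor of B and myeloid cells, Apoe and St6galnac4, and Tlr9 to Snx8 (0.87), Cd38 and Nceh1. Tlr9 reached at most 3.97 CPM over these points, below the 10 CPM added, so its r values rest on few UMIs.

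In neutrophil-like cells the components of the lipopolysaccharide receptor differed between the labels in opposite directions. Cd14 was 1.71-fold (1.62 to 1.80) higher with the CKO label, from 36526 UMIs against 1574 UMIs with the WT label, a log2 ratio of 0.77 (0.70 to 0.84). Tlr4 was lower, at 62.2 CPM (55.7 to 69.4, 326 UMIs) with the CKO label and 117 CPM (85.2 to 156, 45 UMIs) with the WT label, a log2 ratio of -0.91 (-1.36 to -0.43). Neither pair of intervals overlapped. Ly96 had a log2 ratio of 0.27 (-0.82 to 1.62), or 0.92 with shared cluster weights, so a difference was not detectable at this depth.

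The adaptor and the receptor for bacterial RNA were higher with the CKO label, as was Cd14. Myd88 was at 203 CPM (191 to 215, 1061 UMIs) with the CKO label and 106 CPM (76.4 to 144, 41 UMIs) with the WT label, a log2 ratio of 0.93 (0.48 to 1.42). Tlr13 was at 107 CPM (97.9 to 116, 558 UMIs) with the CKO label and 54.5 CPM (33.7 to 83.3, 21 UMIs) with the WT label, 0.97 (0.34 to 1.67). Tlr1 had a log2 ratio of 1.30 (0.05 to 2.94), which rests on 5 UMIs with the WT label and was 0.34, under 1.5-fold, with shared cluster weights. Tlr2, its partner, had 1649 UMIs with the CKO label and 110 with the WT label and a log2 ratio of 0.14 (-0.14 to 0.43), whose interval includes no difference. With shared cluster weights the Tlr2 ratio was 0.69, past 1.5-fold. That value draws in part on a cluster of 8 cells with the WT label that held 1 Tlr2 UMI.

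Of the 9 genes, 8 were read in neutrophil-like cells, 4 were at least 1.5-fold higher with the CKO label (Cd14, Myd88, Tlr13 and Tlr1) and 1 lower (Tlr4). Over all 6247 genes read in these cells, 20.3% were that much higher and 26.3% lower, so differences of this size were common. The median log2 ratio of the 8, with Tlr7 set at 0, was 0.52, beside -0.06 over all genes. Tlr4 fell short of 1.5-fold when each cell was called by its own markers (-0.54) and with mixed clusters added (-0.53), the second chosen after the data were seen.

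**Figure D2:**
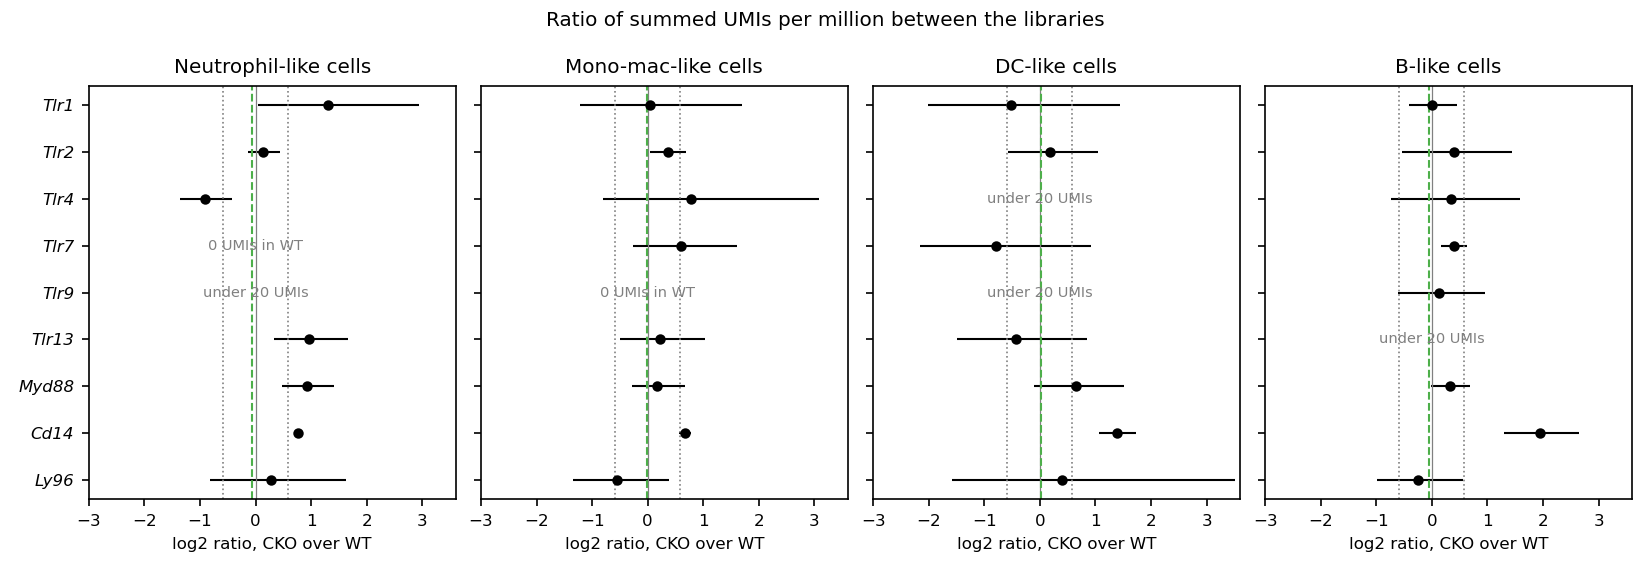
Log2 ratio of CPM, library labelled CKO over library labelled WT, for the 9 genes in neutrophil-like, monocyte and macrophage-like (mono-mac), DC-like and B-like cells; bars are exact 95% conditional intervals of counting error, dotted lines mark 1.5-fold and the dashed green line the median of all genes read. In neutrophil-like cells Cd14, Myd88, Tlr13 and Tlr1 lie right of the upper dotted line and Tlr4, at -0.91, left of the lower one.

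Neutrophil-like cells formed 5 clusters that the libraries filled unequally. A cluster led by Ngp and Lcn2, genes of granule proteins of immature neutrophils, held 254 cells with the CKO label and 0 with the WT label, and one led by Retnlg held 579 with the CKO label and 8 with the WT label. The others were led by G0s2 (452 cells with the CKO label, 92 with the WT label), by Hcar2 and Ccl3 (368 with the CKO label, 68 with the WT label) and by the interferon-induced Rsad2 and Ifit1 (151 with the CKO label, 13 with the WT label). Cd14 was higher with the CKO label in all 4 clusters that held cells of both libraries, by log2 0.74 to 1.13, with every interval above 0. Myd88 had ratios of 0.40 to 1.66 in the 4 clusters, of which 1 had an interval above 0, in the Hcar2 cluster (1.66; 0.65 to 2.90). Tlr13 had ratios of 0.62 to 1.44, with intervals above 0 in the G0s2 (1.20; 0.22 to 2.36) and Hcar2 (1.44; 0.42 to 2.68) clusters, and 1 UMI with the WT label in the Retnlg cluster. In the G0s2 cluster, for example, Cd14 was at 7410 CPM with the CKO label and 4426 CPM with the WT label.

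Tlr4 had a negative ratio in each of the 3 clusters with at least 20 UMIs, between -0.97 and -0.60, with intervals below 0 in the G0s2 and Hcar2 clusters and 2 UMIs with the WT label in the Retnlg cluster. In the Hcar2 cluster it was at 63.1 CPM with the CKO label and 123 CPM with the WT label. Tlr2 had positive ratios in 4 of 4 clusters, the highest of which, in the Retnlg cluster, rests on 1 UMI with the WT label. Within the library labelled CKO, Myd88 was highest in the Rsad2 cluster (274 CPM) and Tlr4 lowest there (43.5 CPM), while Tlr13 was highest in the Hcar2 cluster (149 CPM).

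**Figure D3:**
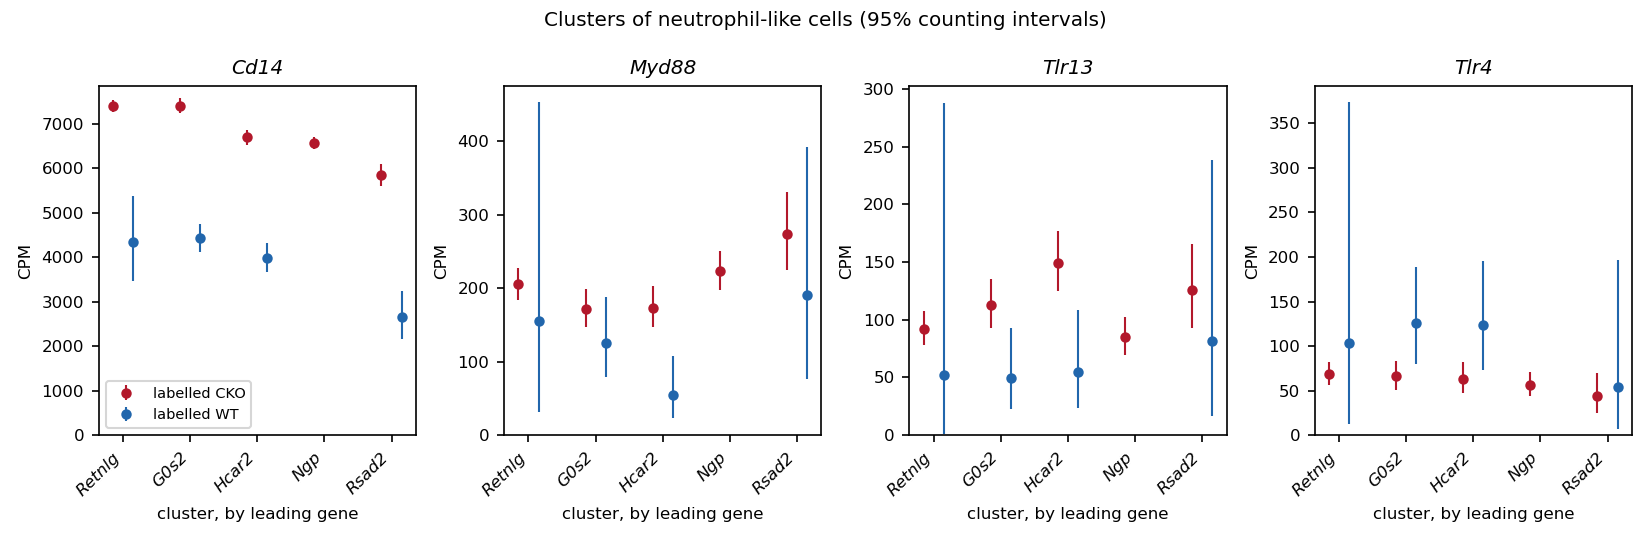
CPM of Cd14, Myd88, Tlr13 and Tlr4 in the 5 clusters of neutrophil-like cells, named by their leading gene, in the library labelled CKO (red, left) and the library labelled WT (blue, right), with exact 95% Poisson intervals; the Ngp cluster had no cell with the WT label. Cd14 is higher and Tlr4 lower with the CKO label in the G0s2 and Hcar2 clusters, where both libraries held at least 68 cells.

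Per cell, after thinning to 1000 UMIs, a Cd14 UMI was found in 98.7% (98.0 to 99.2) of 1728 neutrophil-like cells with the CKO label and 91.8% (86.4 to 95.6) of 159 with the WT label, leaving out 76 shallower cells with the CKO label and 22 with the WT label. Unthinned shares were 99.1% with the CKO label and 91.2% with the WT label. In T-like cells, which should lack the gene, 1.63% with the CKO label and 0% with the WT label (a limit of 0.917%) held one. Median depths were 2580.5 UMIs with the CKO label and 2039 with the WT label in neutrophil-like cells, and 3727 with the CKO label and 4621.5 with the WT label in T-like cells. Tlr4 was found in 6.31% of thinned neutrophil-like cells with the CKO label and 8.18% with the WT label, with overlapping intervals, and in 0% of T-like cells with either label. Tlr4 and Ly96 were found together in 2 of 1728 thinned cells with the CKO label and 0 of 159 with the WT label, a limit of 1.89%, so the depth shows little of the complex in single cells.

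Other transcripts moved with the label in neutrophil-like cells. The 13 neutrophil markers summed to 209296 CPM with the CKO label and 129091 CPM with the WT label. The 12 B markers summed to 46.0 CPM (0 at 0) with the CKO label and 125 CPM (1 at 0) with the WT label, and the 10 T markers to 10.3 CPM (0 at 0) with the CKO label and 64.9 CPM (2 at 0) with the WT label. Plasma markers, 11 in number with 0 at 0, summed to 416 CPM with the CKO label and 1033 CPM with the WT label, and 19 monocyte and macrophage markers to 2902 CPM (0 at 0) with the CKO label and 1664 CPM (7 at 0) with the WT label. Their part in the differences of the 9 genes was not tested. With the T-like level of each library taken off, an alternative chosen after the data were seen, the Cd14 ratio was 0.77. That level was 15.9 CPM with the CKO label and 6.40 CPM with the WT label. Neutrophil-like cells held 6972 CPM with the CKO label and 4086 CPM with the WT label. The level taken off was thus too small to move the ratio, and the part of free RNA cannot be read from it.

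Around the receptors, 54 pathway genes were listed in 6 groups, and in neutrophil-like cells 37 were read, 5 were at least 1.5-fold higher with the CKO label and 9 lower, with a median log2 ratio of -0.14. Over all 6247 genes read in these cells, 20.3% were that much higher and 26.3% lower. Tlr6, the other partner of TLR2 and the 1 of the other receptors that was read, was lower, at 73.9 CPM with the CKO label and 132 CPM with the WT label (-0.84; -1.27 to -0.39). Of 11 adaptors and kinases 4 were higher and 2 lower. At the upper end stood Traf3 (0.70; -0.10 to 1.63) and the kinase gene Map3k7 (0.69, from 3 UMIs with the WT label; -0.92 to 3.01), and at the lower end Irak1 (-1.84; -2.72 to -0.88), a kinase recruited by MyD88, and the ubiquitin ligase gene Traf6 (-0.77; -1.99 to 0.75). Of 6 transcription factors 0 were higher and 1 lower, Nfkb1, a subunit of NF-κB, at 536 CPM with the CKO label and 937 CPM with the WT label (-0.81), with Rel at -0.46, Irf7 at 0.07 and Irf5 at 0.48.

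Of 6 negative regulators 0 were higher and 2 lower in neutrophil-like cells, the repressor gene Atf3 (-1.08; -1.38 to -0.76) and the ubiquitin ligase gene Peli1 (-0.77), while Tollip (-0.05) and Zc3h12a (-0.04) differed little. Of 10 inflammatory targets 1 was higher and 3 lower. Tnf was at 437 CPM with the CKO label and 283 CPM with the WT label (0.63; 0.35 to 0.92) and Cxcl10 at 0.22. The chemokine gene Ccl3, among the leading genes of 1 cluster although not used to form it, was at 1926 CPM with the CKO label and 4415 CPM with the WT label (-1.20). The cyclooxygenase gene Ptgs2 was at 1343 CPM with the CKO label and 2645 CPM with the WT label (-0.98). The 3 accessory genes read were within 1.5-fold: the endosomal chaperone gene Unc93b1 at 0.13, Cnpy3 at -0.14 (from 3 UMIs with the WT label; -1.80 to 2.20) and Hsp90b1 at -0.40.

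In monocyte and macrophage-like cells Cd14 was also higher with the CKO label, at 3496 CPM (24108 UMIs) against 2197 CPM (704 UMIs) with the WT label, a log2 ratio of 0.67 (0.56 to 0.78). Tlr2 was at 336 CPM (322 to 350) with the CKO label and 262 CPM (209 to 325) with the WT label, 0.36 (0.04 to 0.69), below 1.5-fold. Tlr7 had 357 UMIs with the CKO label and 11 with the WT label, 0.59 (-0.26 to 1.61), and Tlr4 had 111 with the CKO label and 3 with the WT label, 0.78 (-0.80 to 3.08). The intervals of Tlr7 and Tlr4 include no difference, and Tlr4 turned to -0.12 when each cell was called by its own markers. Myd88 (0.17), Tlr13 (0.22), Tlr1 (0.04) and Ly96, at -0.54 (-1.35 to 0.39), were within 1.5-fold. Tlr9 had 22 UMIs (3.19 CPM) with the CKO label and 0 with the WT label, where the floor of 3 counts allows up to 9.36 CPM, so no fold is given. Over the settings run, Tlr1 lay between -0.52 and 1.36, Tlr13 between -0.58 and 0.85 and Ly96 between -0.99 and -0.24, so these calls depend on the setting.

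All 9 genes were read in these cells, 3 were at least 1.5-fold higher (Cd14, Tlr7 and Tlr4) and 0 lower, beside 15.7% higher and 21.3% lower of 8917 genes. Their median, with Tlr9 set at 0, was 0.22, beside -0.01 over all genes. Of the 31 cells with the WT label, 18 lay in a cluster led by Chil3 and 9 in a cluster led by Lyz2 and Ccl2. In the Chil3 cluster Cd14 was at 3490 CPM with the CKO label (456 cells) and 3008 CPM with the WT label (18 cells), and in the Ccl2 cluster at 2328 CPM with the CKO label (90 cells) and 1162 CPM with the WT label (9 cells). With shared cluster weights over these clusters the Cd14 ratio was 0.31, under 1.5-fold. Tlr2 had ratios of -0.06 in the Chil3 cluster and -0.39 in the Ccl2 cluster, against its direction over the class.

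Within the library labelled CKO, Tlr2 was at 695 CPM in a cluster led by Prg4 and Serpinb2 and at 501 CPM in one led by Nos2, the gene of inducible nitric oxide synthase. It was at 295 CPM in the Chil3 cluster and 197 CPM in the Ccl2 cluster. The Prg4 cluster held 27 cells with the CKO label and 0 with the WT label, and the Nos2 cluster 162 cells with the CKO label and 1 with the WT label. Neutrophil markers in monocyte and macrophage-like cells summed to 20490 CPM with the CKO label and 15751 CPM with the WT label, above the class's own 19 markers with the CKO label (19294 CPM) and below them with the WT label (17059 CPM). B markers summed to 264 CPM with the CKO label and 565 CPM with the WT label, T markers to 75.8 CPM with the CKO label and 325 CPM with the WT label, and plasma markers to 1211 CPM with the CKO label and 3380 CPM with the WT label. None of these markers was at 0, and their part in the differences was not tested.

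Of the 54 pathway genes 49 were read in monocyte and macrophage-like cells, 6 were at least 1.5-fold higher and 8 lower, with a median of 0.09. Over all 8917 genes read in these cells, 15.7% were that much higher and 21.3% lower. Of 12 inflammatory targets 1 was higher, Acod1, the gene of the itaconate-forming enzyme of macrophages, at 2432 CPM with the CKO label and 1604 CPM with the WT label (0.60; 0.47 to 0.73), and 1 lower, Ccl3 (-0.85), with Il10 at 0.41 and Ccl4 at -0.51. Of 8 accessory genes 2 were higher and 2 lower: Hsp90b1, a chaperone gene of the receptors, was at 0.74 (0.47 to 1.02), Slc15a4 at 1.64 from 1 UMI with the WT label (-0.89 to 6.96), the scavenger receptor gene Cd36 at -1.97 (-3.07 to -0.67) and Ly86 at -0.71 (-1.05 to -0.35). Tirap, the adaptor that brings MyD88 to TLR2 and TLR4, had 125 UMIs with the CKO label and 1 with the WT label (2.54; 0.03 to 7.85) and Ticam2 174 with the CKO label and 3 with the WT label (1.43; -0.14 to 3.72), the 2 higher of 13 adaptors and kinases, with Tab3 (-1.45) lower and Irak1 at -0.55.

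Of 4 other receptors read in monocyte and macrophage-like cells 0 were higher and 3 lower, Tlr12 (-2.43; -4.06 to -0.39), Tlr3 (-1.49, from 3 UMIs with the WT label; -3.22 to 0.89) and Tlr8 (-0.60; -1.89 to 1.07), with Tlr6 at -0.50. Irf3, a factor that drives type I interferon genes, was the 1 of 6 transcription factors lower (-1.22; -2.05 to -0.27), with Rel at -0.38, Nfkb1 at 0.24 and Rela at 0.25. Of 6 negative regulators Tollip (0.83; -0.31 to 2.29) was higher, with Socs1 at 0.48, Atf3 at 0.10 and Tnfaip3 at 0.00.

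DC-like cells held Cd14 at 763 CPM (733 to 794, 2425 UMIs) with the CKO label and 291 CPM (231 to 362, 81 UMIs) with the WT label, a log2 ratio of 1.39 (1.07 to 1.73). Myd88 was at 84.6 CPM (269 UMIs) with the CKO label and 53.9 CPM (15 UMIs) with the WT label, 0.65 (-0.10 to 1.51). Tlr7 had 33 UMIs with the CKO label and 5 with the WT label, -0.79 (-2.16 to 0.92), and turned to 0.22 when the cell with most Tlr7 UMIs was left out of each library. The Cd14 intervals of these sums did not overlap, and those of the Myd88 and Tlr7 ratios include no difference. After thinning to 1000 UMIs, a Cd14 UMI was found in 30.8% (25.8 to 36.1) of 325 DC-like cells with the CKO label. With the WT label it was found in 11.5% (2.45 to 30.2) of 26 cells, and these intervals overlapped. Unthinned shares were 57.0% with the CKO label and 30.8% with the WT label. Of 7 genes read, 2 were at least 1.5-fold higher and 1 lower, beside 22.5% higher and 14.3% lower of 7866 genes, with a median of 0.19 beside 0.03. Tlr2 (0.19), Tlr13 (-0.43), Tlr1 (-0.51) and Ly96 (0.39, from 2 UMIs with the WT label; -1.59 to 3.50) were within 1.5-fold. Over the settings run, Tlr2 lay between 0.15 and 1.85, Tlr13 between -0.46 and 0.86, Tlr1 between -1.24 and -0.26 and Ly96 between -0.09 and 1.07. Without thinning, a Tlr2 UMI was found in 29.7% of DC-like cells with the CKO label and 7.69% of the 26 with the WT label. After thinning, the Tlr2 shares were 5.54% (3.32 to 8.61) with the CKO label and 0% (a limit of 11.5%) with the WT label. The Tlr2 ratio was 1.43 (0.04 to 3.32) in the Tnip3 cluster and -1.06 (-2.06 to 0.05) in the Cst3 cluster. Tlr4, with 17 UMIs with the CKO label, and Tlr9, with 7, had 0 with the WT label and were not read.

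A cluster of DC-like cells led by Tnip3 and Ccnd1 held Cd14 at 1171 CPM with the CKO label (191 cells) and 301 CPM with the WT label (16 cells), and one led by Cst3 and Naaa at 377 CPM with the CKO label (89 cells) and 284 CPM with the WT label (10 cells), the second with an interval that includes no difference (0.41; -0.03 to 0.89). Cells led by Fscn1 and Ccl22, genes of migratory DCs, came from the library labelled CKO alone (50 cells) and held Cd14 at 70.6 CPM. The 13 neutrophil markers in DC-like cells summed to 5078 CPM (0 at 0) with the CKO label and 2267 CPM (2 at 0) with the WT label, and the 19 monocyte and macrophage markers to 5712 CPM (1 at 0) with the CKO label and 3992 CPM (5 at 0) with the WT label. Their part in the Cd14 difference was not tested.

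Of 48 pathway genes read in DC-like cells, 12 were at least 1.5-fold higher and 8 lower, with a median of 0.07. Over all 7866 genes read in these cells, 22.5% were that much higher and 14.3% lower, shares close to those of the pathway genes. Of 12 inflammatory targets 6 were higher and 2 lower. Ptgs2 was at 316 CPM with the CKO label and 86.2 CPM with the WT label (1.87; 1.29 to 2.52) and Tnf at 64.5 CPM with the CKO label and 18.0 CPM with the WT label (1.84; 0.60 to 3.48). Il12b, the gene of a subunit of interleukin 12, was at 151 CPM with the CKO label and 284 CPM with the WT label (-0.91; -1.25 to -0.55) and Ccl3 at -1.23. The endosomal receptor genes Tlr3 (-1.74; -2.99 to -0.28) and Tlr12 (-2.10; -3.25 to -0.81) were lower, as was Cd36 (-2.02; -2.76 to -1.23), while Tlr6 had 21 UMIs with the CKO label and 1 with the WT label (0.88; -1.76 to 6.25). Of 7 negative regulators 2 were higher, Tnfaip3 (0.62; 0.24 to 1.02), the gene of an inhibitor of NF-κB, and Tollip (0.97, from 3 UMIs with the WT label; -0.64 to 3.28), and 2 lower, Atf3 (-0.68; -1.10 to -0.24) and Sigirr (-0.71; -2.22 to 1.27). Rel (0.03), Nfkb1 (0.24) and Unc93b1 (0.09) differed little.

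In B-like cells the receptor with most UMIs was Tlr7. It was at 47.9 CPM (44.6 to 51.3, 797 UMIs) with the CKO label and 36.5 CPM (31.5 to 42.0, 192 UMIs) with the WT label, a log2 ratio of 0.39 (0.16 to 0.63), below 1.5-fold with intervals apart. A Tlr7 UMI was found in 4.54% of thinned cells with the CKO label and 2.91% with the WT label, beside 13.5% of unthinned cells with the CKO label and 12.7% with the WT label. Median depths were 2924 UMIs with the CKO label and 4012.5 with the WT label. In thinned T-like cells a Tlr7 UMI was found in 1.02% with the CKO label and 1.22% with the WT label.

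Tlr9 was at 0.14 (-0.62 to 0.96), Tlr1 at 0.01 (-0.41 to 0.45) and Myd88, at 349 UMIs with the CKO label and 88 with the WT label, at 0.33 (-0.01 to 0.68). Tlr2 (0.40), Tlr4 (0.34) and Ly96 (-0.25) had at most 56 UMIs with the CKO label. Of 8 genes read in B-like cells, 1 was at least 1.5-fold higher and 0 lower, beside 5.16% higher and 7.7% lower of 10694 genes, with a median of 0.33 beside -0.04. The 1 was Cd14, at 15.3 CPM (254 UMIs) with the CKO label and 3.99 CPM (21 UMIs) with the WT label.

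Between clusters of B-like cells with the CKO label Tlr7 ranged from 27.2 to 81.9 CPM. The highest was a cluster led by Pkib, Ifi214 and Pml, at 81.9 CPM (72.1 to 92.6) with the CKO label and 63.2 CPM (43.5 to 88.8) with the WT label. The interferon-induced Slfn5 and Ifi203 were also among its leading genes. Over 10 clusters in each library, Tlr7 was compared with the sum of 5 interferon-induced genes on the log2(CPM + 10) scale. Pearson's r was 0.76 with the CKO label and 0.59 with the WT label. Clusters with more of these transcripts did not always hold more Tlr7. In the cluster led by Hspa1b, the 5 genes summed to 931 CPM with the CKO label and 1116 CPM with the WT label. Tlr7 was at 41.4 CPM with the CKO label and 32.4 CPM with the WT label there. In the cluster led by Serpina3f they summed to 547 CPM with the WT label, with Tlr7 at 62.5 CPM (35.7 to 101). These values are descriptive, and the relation was not tested. A cluster led by Egr3 and Myc, genes of recently activated B cells, held Tlr7 at 55.3 CPM with the CKO label and 60.6 CPM with the WT label. In the cluster led by Scd1 and Ighd it was at 32.4 CPM (26.3 to 39.5) with the CKO label and 14.1 CPM (6.46 to 26.8) with the WT label. The log2 ratio there was 1.20 (0.21 to 2.37), with an interval above 0. Over 9 clusters with cells of both libraries the ratio was positive in 7 and negative in 2, between -0.65 and 1.28.

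**Figure D4:**
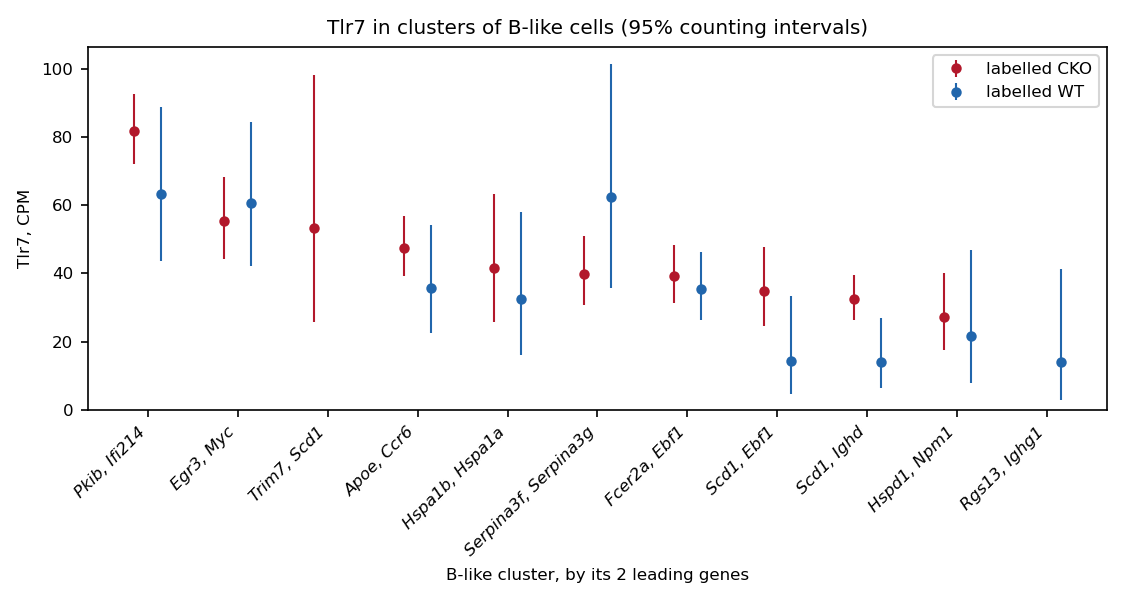
Tlr7 CPM in clusters of B-like cells with at least 20 cells of a library, ordered by the value in the library labelled CKO (red, left), with the library labelled WT (blue, right) and exact 95% Poisson intervals. The cluster led by Pkib and Ifi214 is highest with the CKO label (81.9 CPM), and the intervals of the labels overlap in each of the 9 clusters that show both. The interval of the log2 ratio lies above 0 in the cluster led by Scd1 and Ighd (1.20, 0.21 to 2.37).

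Of 48 pathway genes read in B-like cells, 7 were at least 1.5-fold higher and 2 lower, with a median of 0.20. Over all 10694 genes read in these cells, 5.16% were that much higher and 7.7% lower. The 2 lower were Cd180, the gene of a TLR4-like receptor of B cells, at 45.3 CPM with the CKO label and 81.8 CPM with the WT label (-0.85; -1.03 to -0.68), and Atf3 (-0.70). Slc15a4, a transporter gene needed for endosomal Toll-like receptor signalling, was at -0.51 (-0.76 to -0.25), Unc93b1 at 0.05 and Cd36 at 0.37. Tlr12 (1.51, from 2 UMIs with the WT label; -0.55 to 4.66) was higher, with Tlr6 at 0.40 and Tlr3 at -0.36. None of 14 adaptors and kinases passed 1.5-fold, with Tirap at 0.58 (0.07 to 1.13) and Irak3 at -0.10, and none of 6 transcription factors did, with Rela at 0.34 and Irf3 at -0.35. Of 11 inflammatory targets 6 were higher, led by Il6 (20 UMIs with the CKO label, 1 with the WT label; 2.66, 0.02 to 8.04) and Acod1, a transcript of myeloid cells, at 20.9 CPM with the CKO label and 4.56 CPM with the WT label (2.19).

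In B-like, T-like and plasma-like cells the sums of Cd14 and of S100a8 were both higher with the CKO label. Whether the same cells held both transcripts was not tested. S100a8, a leading neutrophil transcript, was at 84.7 CPM in B-like cells with the CKO label and 13.1 CPM with the WT label. It was at 67.4 CPM with the CKO label and 14.5 CPM with the WT label in T-like cells, and at 33.4 CPM with the CKO label and 5.29 CPM with the WT label in plasma-like cells. Cd14 was at 15.9 CPM with the CKO label and 6.40 CPM with the WT label in T-like cells (1.31; 0.29 to 2.44). In plasma-like cells it was at 7.11 CPM with the CKO label and 1.61 CPM with the WT label (2.14; 1.01 to 3.52).

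Per 100 S100a8 UMIs, B-like cells held 18.0 Cd14 UMIs with the CKO label and 30.4 with the WT label, and T-like cells 23.6 with the CKO label and 44.0 with the WT label. Neutrophil-like cells held 12.8 with the CKO label and 19.8 with the WT label. Monocyte and macrophage-like cells held 102 with the CKO label and 132 with the WT label, and DC-like cells 78.0 with the CKO label and 125 with the WT label. In each library the ratios of B-like and T-like cells lay between those of neutrophil-like and those of the other myeloid cells, and the part of free RNA in the low Cd14 of lymphoid classes was not tested. NK-like, ILC2-like and ILC3-like cells with the WT label had at most 3 S100a8 UMIs.

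**Figure D5:**
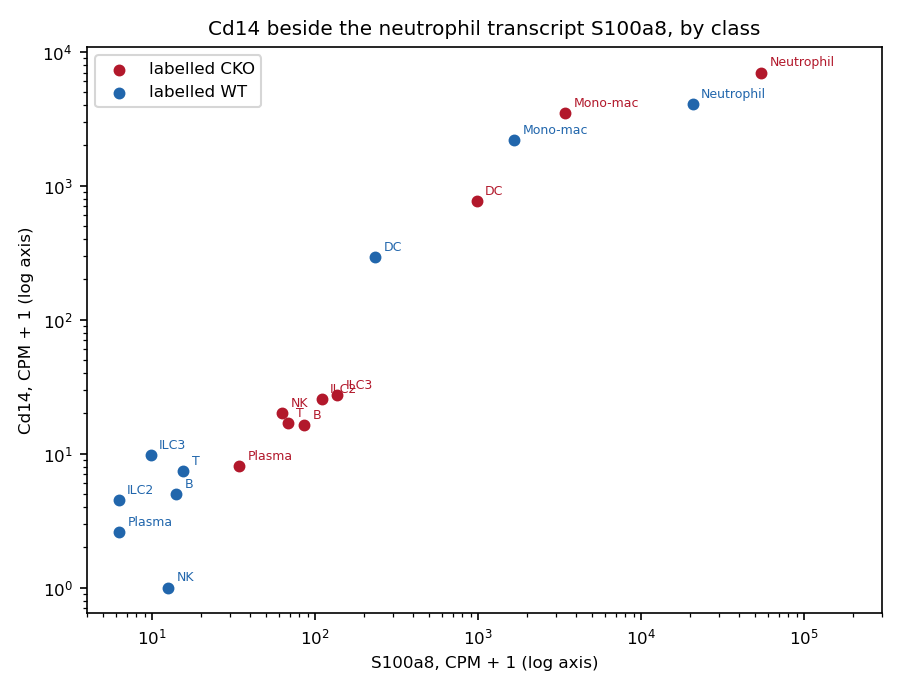
Cd14 against S100a8, both as CPM + 1 on log axes, in 9 classes of the library labelled CKO (red) and the library labelled WT (blue). Lymphoid classes of the library labelled CKO hold S100a8 between 33.4 and 136 CPM, above those of the library labelled WT, while the 3 myeloid classes hold far more Cd14.

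In the remaining lymphoid classes few members were read. T-like cells held Myd88, which also serves the interleukin 1 and interleukin 18 receptors, at 28.4 CPM (59 UMIs) with the CKO label and 23.3 CPM (40 UMIs) with the WT label (0.29; -0.32 to 0.90). Tlr7 was at 10.1 CPM (21 UMIs) with the CKO label and 6.40 CPM (11 UMIs) with the WT label (0.66; -0.46 to 1.86). Of 3 genes read in T-like cells 2 were higher, Cd14 and Tlr7, and 0 lower, beside 14.1% higher and 7.49% lower of 8354 genes. NK-like cells held Myd88 at 49.4 CPM (86 UMIs) with the CKO label and 17.3 CPM (3 UMIs) with the WT label (1.51; -0.08 to 3.82), the 1 of 2 genes read that was higher, with 0 lower, beside 21.2% higher and 13.9% lower of 6453 genes.

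In plasma-like cells Ly96 (-0.11), Tlr4 (0.32), Tlr7 (0.27) and Myd88 (0.00) were within 1.5-fold and Cd14 was the 1 of 5 that was higher, with 0 lower, beside 6.63% higher and 9.97% lower of 8919 genes. ILC2-like cells had 1 gene read, Cd14, with 21 UMIs with the CKO label and 2 with the WT label (2.82; 0.78 to 5.95), beside 12.3% higher and 9.93% lower of 5346 genes. In ILC3-like cells 0 of the 9 genes were read, beside 12.8% higher and 14.1% lower of 4174 genes.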

How the data were processed

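The authors deposited UMI counts of each gene in each cell, whole numbers with no scaling. Cell Ranger is given as 6.0.1 per the file headers and as 5.0.0, with Seurat 3.2.3 and mm10, per the submitters' processing notes. Barcodes with under 200 genes (36 with the CKO label, 11 with the WT label) or over 20% mitochondrial UMIs (120 with the CKO label, 36 with the WT label) were left out. Scrublet marked 213 cells with the CKO label (1.91%, expected 8.92%) and 1 with the WT label (0.0342%, expected 2.34%), which were left out, so doublets remain. Clustering (scanpy 1.11.5, leidenalg 0.10.2, 2000 variable genes and 30 components, then 1500 and 20 within compartments, 15 neighbours, resolution 1) left out the 9 genes and the 54 pathway genes. Clusters were named from 18 marker lists by at least 3 detected markers. The 9 genes, all lists and settings were chosen with earlier results of these data known. All 9 genes were named, and per list and described class up to 4 pathway genes, those with the 2 largest and 2 smallest ratios; further genes given were chosen after their values were seen. As most alike, the 3 genes with the highest r were named. Intervals are Poisson for sums, Clopper-Pearson for shares and conditional for ratios (Python 3.11.15, scipy 1.17.1). The ratio step was tested on simulated data.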

Additional observations from a re-analysis of the deposited data

How the results depend on the processing

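No paired analysis was possible because each label has 1 library. Of the member ratios recomputed under alternatives, 3 past 1.5-fold turned their sign, and of the others 394 stayed inside the counting interval of the reported value and 20 left it. Tlr4 in monocyte and macrophage-like cells (0.78) was -0.12 with cells called by their own markers and -0.20 with mixed clusters added, and Tlr7 in DC-like cells (-0.79) was 0.22 without the cell with most UMIs of the gene in each library. At 2-fold in place of 1.5-fold, members past the threshold numbered 1 in neutrophil-like cells (5 at 1.5-fold), 0 in monocyte and macrophage-like cells (3) and 1 in DC-like cells (3), and pathway genes 3 in neutrophil-like cells (14), 8 in monocyte and macrophage-like cells (14) and 8 in DC-like cells (20). Without the top cell, members past 1.5-fold numbered 5 in monocyte and macrophage-like and 5 in DC-like cells. They numbered 6 in DC-like cells with each cell counted alike, and in B-like cells (1) 3 with cells called by their own markers and 2 with at least 1 UMI in each library. In neutrophil-like cells the ratio of Cd14 lay between 0.74 and 1.01, of Myd88 between 0.62 and 1.23, of Tlr13 between 0.94 and 1.32, of Tlr1 between 0.34 and 1.76 of Tlr4 between -0.95 and -0.53 and of Tlr2 between 0.12 and 0.69 over all settings run. Members higher there numbered 5 in place of 4 with each cell counted alike, with shared cluster weights and with mixed clusters added. Cd14 lay between 0.31 and 0.87 in monocyte and macrophage-like cells and between 1.36 and 2.26 in DC-like cells. Calls at 1.5-fold were also lost under some setting for Myd88 in DC-like cells (0.32 to 0.89), Tlr7 in monocyte and macrophage-like cells (0.03 to 1.72) and Tlr7 in T-like cells (0.20 to 1.55). The cause of these shifts was not tested. Adding mixed clusters, keeping only clusters with at least 20 cells in each library and taking off the T-like level were chosen after the data were seen. The second gave no value in monocyte and macrophage-like or DC-like cells, where no cluster had that many. Depth with the WT label limits the ratios of 31 monocyte and macrophage-like and 26 DC-like cells, and that of Tlr1, with 5 UMIs, in neutrophil-like cells.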
